A study of Rattus norvegicus with 16 samples.

Results

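Sprague Dawley (SD) rats, an outbred stock, breathed sulfur dioxide (SO2) or air, and gene expression in their lungs was measured on 4 arrays per exposure. These 8 arrays, chosen by their labelled strain and exposure, are part of a series of 16. The groups used are SD rats and spontaneously hypertensive (SH) rats, each exposed to SO2 or to air. Each of the 4 groups has 4 arrays, which the series design calls biological replicates. The SH arrays entered 1 comparison of responses, the estimate of spread, a filter on dim probe sets and a scale that places arrays by strain. All samples are lung total RNA with a biotin label. No source used here gives the age, sex, dose, duration, sampling time or any pooling of animals, and lung tissue mixes many cell types. The comparison asks which genes of the SD lung differed between SO2 and air.

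SO2 dissolves in the fluid that lines the airways and forms sulfite and bisulfite, which sulfite oxidase turns into sulfate. It is known as an irritant that injures airway epithelium, provokes mucus secretion, draws in inflammatory cells and triggers reflex narrowing of the bronchi. Cells that meet oxidants or damaged protein can raise antioxidant enzymes through the factor Nrf2 and chaperones through the heat shock and unfolded protein responses.

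Signals are linear intensities, 1 per probe set and array, that the submitters had scaled so that each array has nearly the same trimmed mean. Differences are SO2 minus air on the scale of log2(signal + 16), with a standard error (SE), and p-values come from limma, fitted over all 16 arrays and adjusted by Benjamini-Hochberg over 11106 probe sets. Calls needed an adjusted p below 0.05. Markers of lung were bright on every array: the surfactant proteins Sftpc and Sftpb, the club cell secretory protein Scgb1a1 and the alveolar type I cell receptor Ager had a lowest percentile of signal on any of the 8 arrays of 99.6 (Ager). For the other markers examined, the lowest percentile was 99.9 for Sftpa1, 99.3 for Sftpd and 96.5 for Aqp5. Correlations of log2 signals ran from 0.939 to 0.965 among the 12 pairs of arrays with the same exposure and from 0.940 to 0.966 among the 16 pairs that crossed exposures.

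One array stood apart. On 100 probe sets that separate the SH arrays from the other 7 SD arrays, the median position of SD air replicate 2 (title number 46) was 0.845 on a scale where 0 is the mean of those SD arrays and 1 that of the SH arrays; the other SD arrays lay between -0.0803 and 0.0300, and the SH arrays between 0.833 and 1.11. The difference between exposures is therefore given with and without SD air replicate 2. The actin probe sets, whose 3' signal exceeds the 5' signal more in degraded RNA, had a 3'/5' ratio of 1.91 ± 0.689 on the SO2 arrays and 1.53 ± 0.161 on the air arrays (standard deviation, n = 4 each). SD SO2 replicate 2 was at 2.94 and the other SO2 arrays at 1.47 to 1.63, inside the air range of 1.40 to 1.76. The same ratio for GAPDH was 1.53 ± 0.184 on the SO2 arrays and 1.65 ± 0.308 on the air arrays. With the actin ratio and the 10th percentile of signal as covariates, 0 probe sets were called. Title numbers run from 47 to 50 on the SO2 arrays, and are 45, 46, 54 and 55 on the air arrays.

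No gene passed the test. Limma called 0 of 11106 probe sets (0%), and 0 without SD air replicate 2 (0%). At an unadjusted p under 0.05 there were 915 probe sets (8.24%), 490 higher in SO2 (4.41%) and 425 lower (3.83%), where 5% would be expected if nothing differed; with the spread estimated from the 8 SD arrays alone there were 635 (5.72%). Without SD air replicate 2 there were 918 (8.27%), which over genes is 4.11% higher and 3.81% lower, and 659 probe sets were in both sets, which is 72.0% of the first and 71.8% of the second. The split between higher and lower depended on scaling: with arrays centred on their medians, 323 were higher and 551 lower. The median 95% interval reached 0.36 on either side of the estimate, and 28 of 11106 differed by more than 1 on the log2 scale.

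The values below describe the 15 genes higher in SO2 and the 15 genes lower in SO2 that had the smallest unadjusted p. Their adjusted p-values ran from 0.192 to 0.366, so none was called, and these p-values chose them. With the spread estimated from the 8 SD arrays alone, limma gave all 30 an adjusted p of 0.806. The groups did not overlap for 12 of the 15 higher genes and for all 15 lower genes; among all probe sets the SO2 arrays lay wholly above the air arrays for 2.07% and wholly below for 1.47%, and among all genes for 2.01% and 1.46%. All 30 kept their direction without SD air replicate 2, at adjusted p-values of 0.234 to 0.462. Where the groups do not overlap, leaving out an array cannot reverse the direction.

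The gene of smallest p was lower in SO2. Htra1 encodes a secreted serine protease that cleaves matrix proteins. Htra1 had signals of 1127, 1037, 1119.8 and 942.6 in SO2, against 1938, 1819, 2015 and 1396 in air. The Htra1 difference was -0.74 (SE 0.131, adjusted p = 0.192), and -0.73 without SD air replicate 2. The SO2 arrays lay close together and below all 4 air arrays, of which SD air replicate 4 was the nearest. Cdh11, a cadherin of mesenchymal cells, had the same pattern. Cdh11 had signals of 234.2, 300.1, 266.4 and 241.8 in SO2, against 475.9, 427.2, 505.8 and 316.4 in air. The Cdh11 difference was -0.68 (SE 0.147, adjusted p = 0.242), and -0.68 without SD air replicate 2. In bulk tissue, fewer cells of a type and less RNA per cell cannot be told apart. Without SD air replicate 4, the air array of lowest signal for both, Htra1 (-0.86, adjusted p = 0.0183) and Cdh11 (-0.81, adjusted p = 0.0430) were called, against ranges of 0.0183 to 0.806 and 0.0430 to 0.806 over all alternatives.

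Gtf2i, a transcription factor that binds initiator elements, was lower in SO2 with little spread. Gtf2i had signals of 1398, 1288, 1297 and 1406 in SO2, against 1941, 1809, 2061 and 1873 in air. The Gtf2i difference was -0.51 (SE 0.095, adjusted p = 0.202), and -0.53 without SD air replicate 2. Every air array exceeded every SO2 array by more than either group's own range. Cd81, a tetraspanin of the cell surface, had the smallest difference of the 30. Cd81 had signals of 5021, 5342, 5675 and 5466 in SO2, against 6771, 6385, 7649 and 7474 in air. The Cd81 difference was -0.39 (SE 0.0926, adjusted p = 0.323), and -0.44 without SD air replicate 2. The groups were again apart. Cd99, a glycoprotein that leukocytes use to cross the vessel wall, was lower too. Cd99 had signals of 2044, 2059, 1901 and 1491 in SO2, against 2671, 2761, 4493 and 2221 in air. The difference was -0.65 (SE 0.158), or -0.45 without SD air replicate 3, the highest of its group.

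Apelin (Apln) is a peptide that widens vessels. Apln had signals of 538.2, 599.9, 618.6 and 630.2 in SO2, against 820.2, 901, 955.7 and 844 in air. The Apln difference was -0.55 (SE 0.126, adjusted p = 0.258), and -0.54 without SD air replicate 2. A second probe set of Apln was at -0.47 (unadjusted p = 0.00129), so both gave lower signals in SO2. Scnn1b encodes the beta subunit of the epithelial sodium channel, which clears fluid from the airspace. Scnn1b had signals of 607.8, 517.1, 514.4 and 553.3 in SO2, against 822.3, 686.6, 946.6 and 700.3 in air. The Scnn1b difference was -0.50 (SE 0.125, adjusted p = 0.329), and -0.57 without SD air replicate 2. Car2, a carbonic anhydrase, had means of 512.9 ± 91.5 in SO2 and 770.5 ± 127 in air (-0.57, SE 0.144), and its second probe set was at -0.27. Klf5, a transcription factor of epithelium and smooth muscle, had means of 541.9 ± 46.6 in SO2 and 916.1 ± 250 in air (-0.70, SE 0.175). For these 4 genes all SO2 arrays lay below all air arrays.

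The remaining lower genes were of mixed kind. Nudt4, which dephosphorylates inositol pyrophosphates, was at -0.61 (SE 0.138), but a brighter probe set of Nudt4 was at -0.15 (unadjusted p = 0.212). Polr2e, a subunit shared by the nuclear RNA polymerases, was at -0.46 (SE 0.114), and Tmem140 at -0.49 (SE 0.123). Masp1, a protease of the lectin pathway of complement, was at -0.78 (SE 0.196), but another probe set of Masp1 was at 0.08. Mdm2, the ubiquitin ligase that restrains p53, had dim signals. Mdm2 had signals of 77.1, 134.3, 22.5 and 33.9 in SO2, against 198.8, 135.6, 224.1 and 225 in air. Its difference was -1.53 (SE 0.365), while a brighter probe set of Mdm2 went the other way at 0.45 (unadjusted p = 0.0323). The groups met closely at 134.3 and 135.6, and the probe sets of Mdm2 disagree. Mx2, an interferon-induced GTPase, was in a like position. Mx2 had signals of 43, 60.0, 44.6 and 29.2 in SO2, against 117, 653, 72.2 and 293 in air. The Mx2 difference was -1.91 (SE 0.402, adjusted p = 0.242), and -1.38 without SD air replicate 2. Its other probe set was at 0.19. The air signals of Mx2 ran from 72.2 to 653, with SD air replicate 2, the array of SH-like strain position, the highest. SH rats had Mx2 means of 1017 ± 148 in SO2 and 777.6 ± 158 in air, above every SD array. Without SD air replicate 3, the lowest air array, the SD value was -2.35 and was called (adjusted p = 0.0293, in a range of 0.0293 to 0.806). That fit kept SD air replicate 2, and what its strain position adds to the Mx2 difference was not tested. Both Mx2 and Mdm2 passed the filter on dim probe sets, which used the mean over all 16 arrays, with the SH arrays counted. Over the 8 SD arrays alone, the mean log2(signal + 16) of each lay below the lowest mean kept, 6.97.

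**Figure D1:**
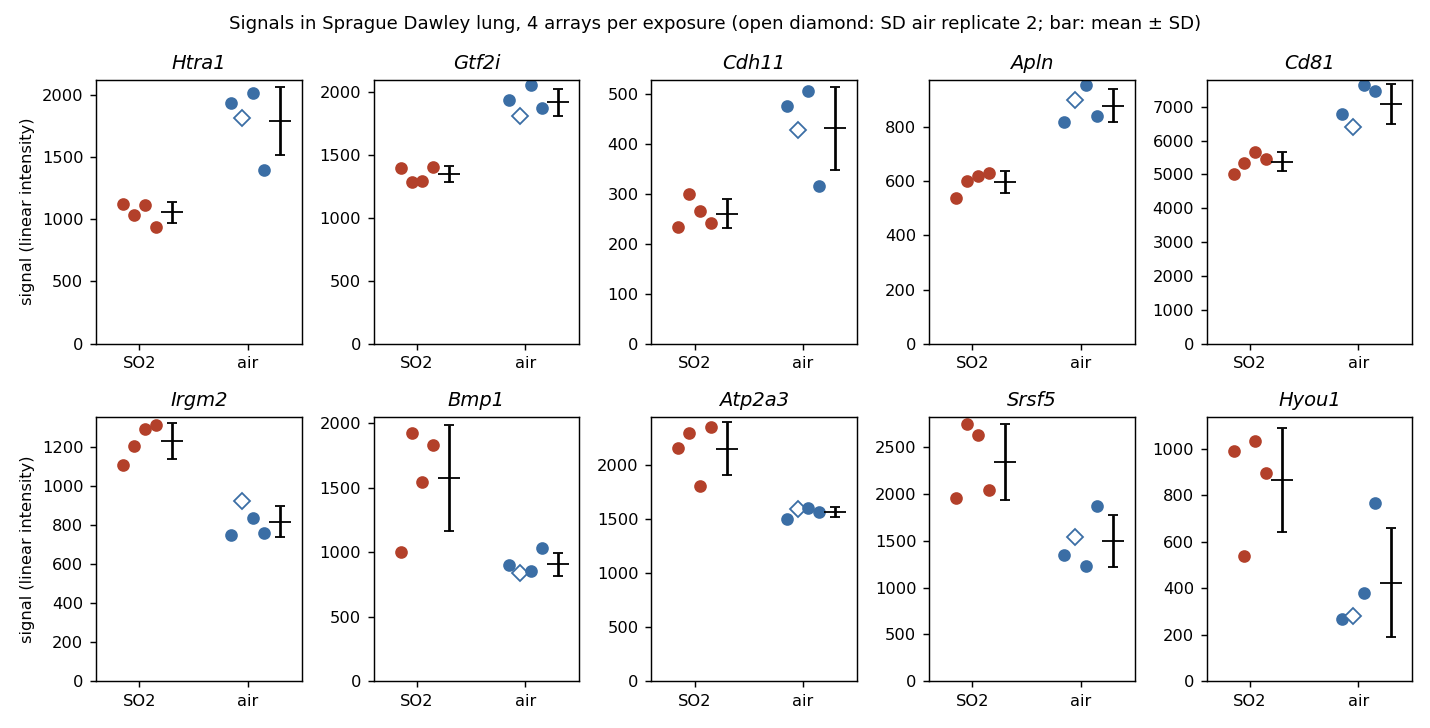
Signals (linear intensity, vertical axis from 0) of 10 of the 30 genes on each SD array, SO2 left and air right, with the mean and SD of 4 arrays beside the points; the open diamond is SD air replicate 2. The upper row holds 5 genes whose SO2 arrays all lie below the air arrays, and the lower row 5 that averaged higher in SO2, where Bmp1 and Hyou1 overlap.

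Among the higher genes, Irgm2 had the smallest p. It encodes an interferon-inducible GTPase that acts on membranes around intracellular microbes. Irgm2 had signals of 1110.0, 1208, 1292 and 1316 in SO2, against 751.3, 924.7, 833.9 and 759.8 in air. The Irgm2 difference was 0.58 (SE 0.12, adjusted p = 0.242), and 0.64 without SD air replicate 2. All SO2 arrays lay above all air arrays, of which SD air replicate 2 was the highest. Slfn4, a member of the Schlafen family that interferon induces in mouse myeloid cells, was also apart between groups. Slfn4 had signals of 849.4, 1066, 1197 and 1051 in SO2, against 404.6, 803, 458.3 and 765.1 in air. The difference was 0.81 (SE 0.197), and a second, dimmer probe set was at 0.15.

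Bmp1 encodes the protease that removes the C-terminal propeptide of procollagens. Bmp1 had signals of 1003, 1925, 1545 and 1831 in SO2, against 900.7, 838.4, 852.7 and 1030.1 in air. The Bmp1 difference was 0.75 (SE 0.162, adjusted p = 0.242), and 0.72 without SD air replicate 2. SD SO2 replicates 2, 3 and 4 were well above the air arrays and SD SO2 replicate 1 lay inside their range; without it the value was 0.95 and was called (adjusted p = 0.00852, in a range of 0.00852 to 0.806). Another probe set of Bmp1 was at 0.23 (unadjusted p = 0.461). Hyou1, a chaperone of the endoplasmic reticulum, differed most of the 15. Hyou1 had signals of 991.9, 538.2, 1037 and 898.2 in SO2, against 265.1, 278.7, 380.7 and 767.4 in air. The Hyou1 difference was 1.10 (SE 0.266, adjusted p = 0.329), and 0.95 without SD air replicate 2. SD air replicate 4 lay among the SO2 arrays, and without it the value was 1.42 (adjusted p = 0.0183, in a range of 0.0183 to 0.806). Its second probe set was at 0.63 (unadjusted p = 0.00893).

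Srsf5 is a serine and arginine rich splicing factor. Srsf5 had signals of 1956, 2749, 2631 and 2043 in SO2, against 1347, 1539, 1236 and 1879 in air. The Srsf5 difference was 0.64 (SE 0.147, adjusted p = 0.258), and 0.66 without SD air replicate 2. Ddx42, an RNA helicase of the spliceosome, had means of 646.4 ± 76.8 in SO2 and 440.7 ± 47.5 in air (0.54, SE 0.136), with a second probe set at 0.85. Ccnl1, a cyclin found in splicing speckles, had means of 676.9 ± 76.3 in SO2 and 480.6 ± 37.2 in air (0.48, SE 0.121). In each of the 3 genes the SO2 arrays lay above the air arrays. Rps24, a protein of the small ribosomal subunit, was at 0.88 (SE 0.241) on a dim probe set and at 0.12 on a bright one.

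Atp2a3, a pump that returns calcium to the endoplasmic reticulum, had a narrow air group. Atp2a3 had signals of 2156, 2298, 1800.5 and 2347 in SO2, against 1503, 1589.6, 1601 and 1564 in air. The Atp2a3 difference was 0.45 (SE 0.102, adjusted p = 0.258), and 0.46 without SD air replicate 2. A second, dimmer probe set of Atp2a3 was at 0.14 (unadjusted p = 0.569), with groups that overlapped. Rictor, a core part of mTOR complex 2, was at 0.57 (SE 0.15). Rassf4, of the Ras association family, was at 0.53 (SE 0.144), and the zinc finger gene Zfp422 at 0.44 (SE 0.121). LOC100912041 was at 0.65 (SE 0.147). Cdc26, a subunit of the anaphase-promoting complex, was at 1.04 (SE 0.275), with 2 other probe sets at 0.01 and 0.51. Cry2, a clock repressor, is described with its pathway.

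**Figure D2:**
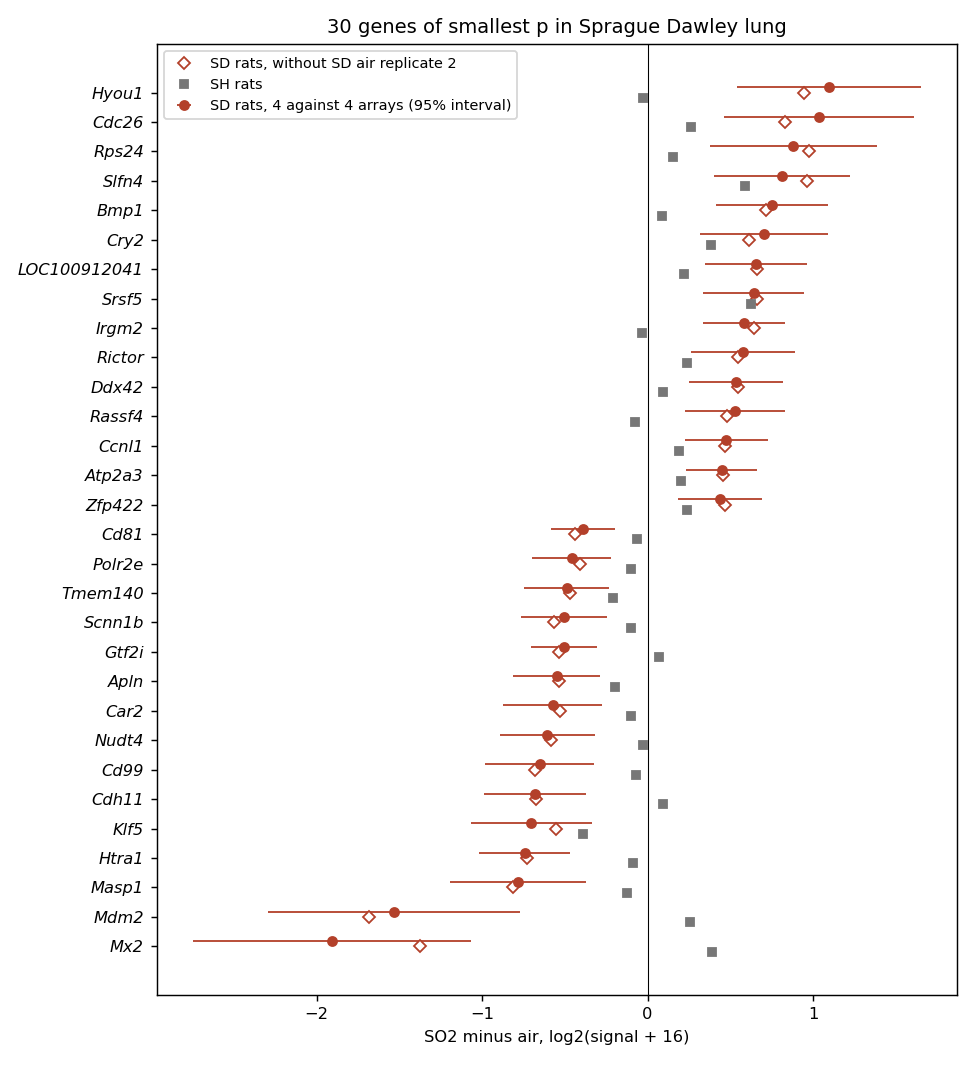
SO2 minus air on the log2(signal + 16) scale for the 30 genes of smallest p in SD lung. Filled circles with 95% intervals are the 4 SO2 against 4 air arrays of SD rats. Open diamonds are the same without SD air replicate 2, and grey squares are SH rats. The diamonds stay on the side of the circles for all 30, and the squares lie nearer 0 for all 30. The genes were chosen by their p in SD rats, which by itself favours values further from 0 in SD than in SH rats. The test of the difference between strains called none of them.

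Gene lists were read against all 8060 genes tested, 1 probe set per gene, of which 324 were higher (4.02%) and 317 lower (3.93%) at an unadjusted p under 0.05, with a median difference of 0.0082; 51.7% of genes lay above 0 and 48.3% below. No member of any of the 33 lists was called. The lists were chosen with earlier results of these data known, so their counts and medians are descriptions.

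Clock genes run a daily cycle in lung cells: Clock and Bmal1 drive the Per and Cry repressors, Nr1d1 and Nr1d2 repress Bmal1, and Dbp, Tef and Hlf carry the rhythm to other genes, opposed by Nfil3. Of 25 listed, 17 were tested and 13 of these averaged higher in SO2, 8 at an unadjusted p under 0.05, with 1 lower and a median of 0.35. Among the repressors, Per2 was higher. Per2 had signals of 812.8, 734.5, 817.9 and 549.8 in SO2, against 205.4, 622.3, 281.1 and 502.9 in air. The difference was 0.94 (SE 0.26). Only SD air replicate 2 of the air arrays exceeded the lowest SO2 array. Cry2 overlapped in part. Cry2 had signals of 374.7, 637.9, 539.6 and 641.9 in SO2, against 288.9, 265.5, 350.8 and 406.3 in air. The difference was 0.70 (SE 0.185). Per1 had signals of 397, 527.6, 418 and 535.2 in SO2, against 247.1, 425.4, 35.5 and 384.8 in air. Per1 was at 1.12, or 0.42 without SD air replicate 3, the lowest array at 35.5.

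The output genes also averaged higher in SO2. Dbp had signals of 1215, 828.8, 1159.9 and 1064 in SO2, against 175.1, 807.2, 585.7 and 734.1 in air. The Dbp groups did not overlap, at 1.05 (SE 0.32), or 0.58 without SD air replicate 1, the lowest array. Hlf was at 0.36 (SE 0.166) and Tef at 0.26 (SE 0.168), or 0.16 without SD SO2 replicate 4. Nr1d2 was at 0.61 (SE 0.172) and Nr1d1 at 0.24 (SE 0.219), or 0.0018 without SD air replicate 1. Wee1, a kinase of the cell cycle under clock control, was at 0.90 (SE 0.253), and the deubiquitinase Usp2 at 0.65 (SE 0.304). Bhlhe40 and Bhlhe41, repressors that bind the same sites as Clock and Bmal1, were at 0.35, or 0.16 without SD SO2 replicate 1, and at 0.23, or 0.034 without SD air replicate 4. The kinase Csnk1d was at 0.26, or 0.16 without SD SO2 replicate 2.

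The activators Bmal1 and Clock were on the other side of 0, as were Nfil3 and Csnk1e. Among them, only the 95% interval of Bmal1 left out 0. Bmal1 gave a lower mean. Bmal1 had signals of 133.7, 135.4, 99.5 and 228.4 in SO2, against 356, 154.9, 249.8 and 228.8 in air. The difference was -0.67 (SE 0.283), and -0.86 without SD air replicate 2, when the groups came apart by a small margin, 228.4 being the highest SO2 signal and 228.8 the lowest air signal left. Clock was at -0.35 (SE 0.173), or -0.19 without SD SO2 replicate 1. Nfil3 was at -0.44 (SE 0.455), or -0.21 without SD air replicate 1. The kinase Csnk1e was at -0.69 (SE 0.362), or -0.30 without SD SO2 replicate 2, its lowest array. SD air replicate 1 was the lowest of its group for Dbp, Per2, Nr1d2, Nr1d1 and Usp2 and the highest for Bmal1 and Nfil3. With 1 array left out at a time, the number of clock genes higher at an unadjusted p under 0.05 was 6 to 9, and the median 0.27 to 0.42.

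**Figure D3:**
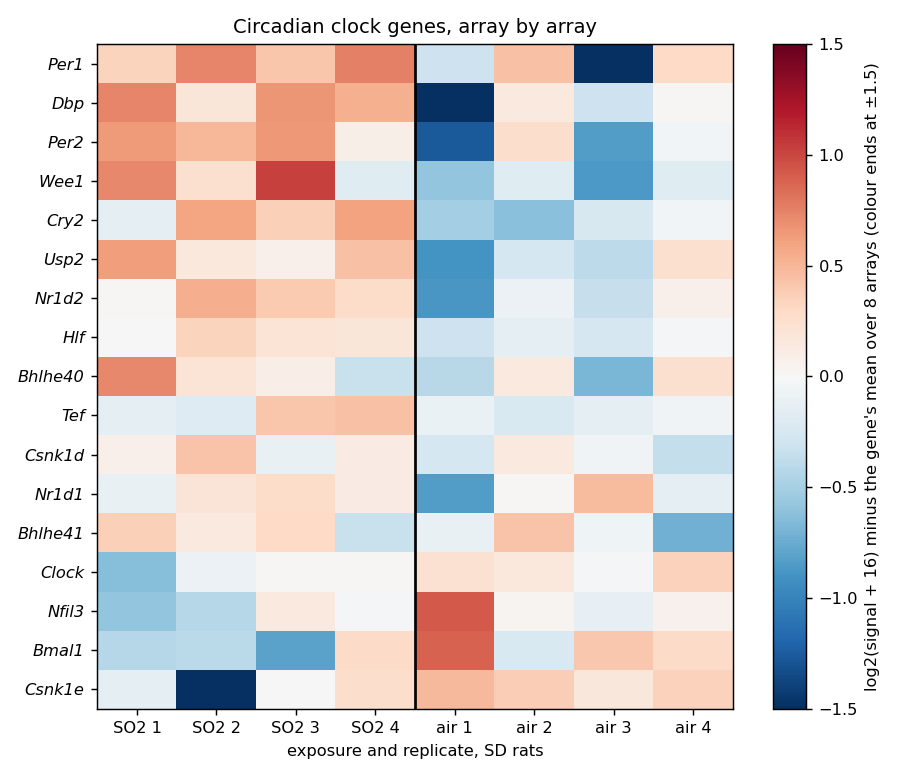
Heat map of the 17 clock genes tested (rows, ordered by the difference) on the SD arrays (columns, 4 SO2 then 4 air replicates); colour is log2(signal + 16) minus the mean of the gene over the 8 arrays, with the scale ending at ±1.5. The SO2 columns are mostly red in the upper rows, and air replicates 1 and 3 hold the darkest blue cells there.

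Interferon response genes guard against viruses and present antigen. Of 43 listed, 32 were tested: 27 averaged higher in SO2, 7 of them at an unadjusted p under 0.05, with 1 lower and a median of 0.18. These counts do not include the probe set of the interferon-induced Mx2 described above, at -1.91 (SE 0.402). The other Mx2 probe set was at 0.19. Gbp2, a guanylate-binding GTPase, was apart between groups. Gbp2 had signals of 756.9, 676, 916.1 and 1076 in SO2, against 557.9, 557.1, 488.5 and 665.1 in air. The difference was 0.57 (SE 0.161). Samhd1, which degrades nucleotides that viruses need, was at 0.86 (SE 0.281), or 0.48 without SD air replicate 1, which had the lowest signal. Tapbp, a chaperone that loads peptide onto class I molecules, went the other way. Tapbp had signals of 544.2, 432.8, 635 and 529.5 in SO2, against 669.7, 687.1, 740.6 and 784.7 in air. The difference was -0.43 (SE 0.121), with all SO2 arrays below all air arrays. Between 4 and 9 members were higher at an unadjusted p under 0.05 as single arrays were left out: 4 without SD air replicate 1, without SD air replicate 3, or without SD SO2 replicate 3, and 9 without SD air replicate 2; with arrays centred on their medians there were 4.

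Interferon signalling reaches many such genes through the interferon-stimulated element, searched on both strands as TTTC, any 2 bases and TTTC, in windows from 250 bases before to 50 after the RefSeq gene start (build GRCr8). It was in 18 of the 27 promoters found for tested members (66.7%), against 3.77% of 27457 rat promoters and 2.76% of those of all genes tested; the list was made from genes known to respond to interferon. The 18 members with the element had a median difference of 0.16, and the 9 without it 0.30. The promoters of Irgm2 and Gbp2, with higher means in SO2, and of Tapbp, with a lower one, are shown because the element lies in genes with values on both sides of 0, none of which was called; they were chosen for those values, and capitals mark the matches, which are descriptions and not shown to be used here.
Irgm2 promoter (GRCr8 chr10:42889720-42890019, plus strand): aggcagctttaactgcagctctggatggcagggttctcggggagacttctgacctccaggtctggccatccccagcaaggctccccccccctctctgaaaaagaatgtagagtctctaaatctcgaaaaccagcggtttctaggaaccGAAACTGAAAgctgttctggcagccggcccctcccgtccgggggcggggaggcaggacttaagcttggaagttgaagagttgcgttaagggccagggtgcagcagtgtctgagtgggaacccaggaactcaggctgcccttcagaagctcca
Gbp2 promoter (GRCr8 chr2:234005477-234005776, plus strand): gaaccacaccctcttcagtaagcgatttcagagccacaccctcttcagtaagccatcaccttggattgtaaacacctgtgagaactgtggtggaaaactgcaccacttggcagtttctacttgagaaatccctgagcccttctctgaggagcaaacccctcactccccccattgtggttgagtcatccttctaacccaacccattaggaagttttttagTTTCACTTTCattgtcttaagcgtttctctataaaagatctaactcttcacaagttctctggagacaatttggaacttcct
Tapbp promoter (GRCr8 chr20:4967828-4968127, minus strand): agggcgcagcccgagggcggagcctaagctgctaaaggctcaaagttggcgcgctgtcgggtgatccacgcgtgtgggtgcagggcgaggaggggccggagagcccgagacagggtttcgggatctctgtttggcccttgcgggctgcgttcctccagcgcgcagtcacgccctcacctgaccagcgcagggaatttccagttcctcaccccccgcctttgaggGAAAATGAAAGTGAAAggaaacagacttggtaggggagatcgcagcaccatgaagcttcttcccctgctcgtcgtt
The match began 102 bases before the start in Irgm2 and 31 before it in Gbp2, while Tapbp held 2 overlapping matches.

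For the clock genes, the E-box CACGTG, bound by Clock and Bmal1, was in 3 of 14 promoters found (21.4%; Bhlhe40, Bhlhe41 and Tef), against 6.65% of all rat promoters and 9.43% of those of genes tested. The D-box TTATGTAA, bound by Dbp, Tef and Hlf, was in 1 (7.14%), against 0.881% of all and 0.505% of those of genes tested. That promoter, shown with its D-box in capitals 192 bases before the start, is of Per2.
Per2 promoter (GRCr8 chr9:99496944-99497243, minus strand): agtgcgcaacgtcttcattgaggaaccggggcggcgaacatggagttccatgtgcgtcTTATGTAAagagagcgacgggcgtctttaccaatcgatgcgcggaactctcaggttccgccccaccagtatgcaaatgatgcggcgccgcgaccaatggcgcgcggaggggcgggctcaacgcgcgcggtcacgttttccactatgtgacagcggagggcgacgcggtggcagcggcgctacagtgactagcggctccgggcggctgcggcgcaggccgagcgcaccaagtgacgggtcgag
Of the 30 genes of smallest p, 26 had a promoter in the table; none held the E-box, 1 the D-box and 2 the interferon-stimulated element.

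Matrix and mesenchymal genes averaged lower. Of 54 tested matrix and remodelling genes, 36 lay below 0, 8 at an unadjusted p under 0.05 against 3 above it, with a median of -0.08. Serpinh1, the chaperone of collagen, was apart between groups. Serpinh1 had signals of 2679, 2502, 2761 and 2619 in SO2, against 4626, 3118, 3100.2 and 3721 in air. The difference was -0.44 (SE 0.135). Loxl1, which cross-links elastin, was at -0.59 (SE 0.197), or -0.37 without SD air replicate 3, where it measured 961.3. Htra1 and Bmp1 belong to this list and lay on opposite sides of 0. The number lower at an unadjusted p under 0.05 ran from 5 to 12 as single arrays were left out, and was 12 without SD air replicate 2 and 5 without SD air replicate 1, without SD air replicate 4, or without SD SO2 replicate 3.

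Of 19 tested fibroblast and mesenchyme genes, 5 averaged higher and 2 were lower at an unadjusted p under 0.05 (4 without SD SO2 replicate 4), Cdh11 and Tcf21, a transcription factor of lung fibroblasts (-0.48, SE 0.17). Ddr2, a collagen receptor, was higher at 0.43 (SE 0.143), without overlap. Endothelial genes had a median of -0.15 over 23 tested, with 4 lower and 1 higher at an unadjusted p under 0.05; 2 were lower without SD SO2 replicate 1 and 7 without SD SO2 replicate 4. Plvap, which spans the diaphragms of capillary pores, had means of 4605 ± 1560 in SO2 and 6808 ± 918 in air (-0.62, SE 0.2), or -0.37 without SD SO2 replicate 1. Flt1, a receptor of vascular endothelial growth factor, was at -0.46 and Ramp2, the partner of the adrenomedullin receptor, at -0.27. Edn1, the vasoconstrictor endothelin-1, was at 0.68 (SE 0.264). It is also in the list of blood pressure and vasoactive genes, with a median of -0.13, where 2 of 17 tested were lower at an unadjusted p under 0.05 (Ramp2 and Ece1, the enzyme that activates endothelin, at -0.31).

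Heart and skeletal muscle genes, which lung tissue can carry from muscle around its veins, had a median of -0.19 over 25 tested. Myl7, an atrial myosin light chain, was lower in SO2. Myl7 had signals of 446.2, 557, 492.9 and 786.2 in SO2, against 761.9, 742.3, 1386 and 913.1 in air. The difference was -0.71 (SE 0.216). SD air replicate 3 was the highest array for Myl7, Tcap and Csrp3, and without it the list's median was -0.06. Lower at an unadjusted p under 0.05 were 3 members with all arrays, 1 without SD air replicate 3, and 6 when SD air replicate 4 was dropped, as when SD SO2 replicate 4 was. Mybpc3, a myosin-binding protein, was at 0.75, or 0.38 without SD air replicate 2. Smooth muscle genes had a median of 0.16 over 17 tested, with 3 higher at an unadjusted p under 0.05: Flna (0.26), Mylk (0.34) and Actg2 (0.46). That number was 8 without SD air replicate 3, 5 without SD SO2 replicate 3 and 1 without SD air replicate 1.

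Chaperone genes were mixed. Of 35 tested heat shock and unfolded protein genes, 3 were lower and 1 higher at an unadjusted p under 0.05. Hspa1a, an inducible heat shock protein of the 70 family, had a wide air group. Hspa1a had signals of 1091, 898.3, 934.3 and 817.2 in SO2, against 3387, 1616, 1446 and 1042 in air. The difference was -0.86 (SE 0.371), or -0.53 without SD air replicate 1. Its partner Dnajb1 was at -0.59 (SE 0.17) and the small heat shock protein Hspb1 at -0.58 (SE 0.225), or -0.39 without SD air replicate 1, while Hyou1 was the higher member. The number lower was 1 without SD air replicate 1, 5 without SD SO2 replicate 1 and 6 without SD air replicate 4. Of 27 tested splicing regulators, 24 averaged higher and 3 were so at an unadjusted p under 0.05: Srsf5, Srsf2 (0.40, or 0.27 without SD air replicate 4) and Luc7l (0.28); with arrays centred on their medians, which lowers all values, 1 was.

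Lymphocyte genes averaged higher. All 17 tested T cell and natural killer cell genes averaged higher in SO2, with a median of 0.28, and 3 were at an unadjusted p under 0.05: Gzmb, a cytotoxic protease (0.94, or 0.42 without SD air replicate 3), the receptor Klrk1 (0.69) and the adaptor Lat (0.34). The number was 9 without SD air replicate 4, 6 without SD SO2 replicate 2 and 1 without any of SD air replicates 1 and 3 or SD SO2 replicates 1 and 4. Summed signals of the 17 genes were 11924, 6902, 10550 and 11195 in SO2, against 7453, 7844, 6099 and 11650 in air. The sums overlapped, with SD SO2 replicate 2 low and SD air replicate 4 high for their groups. Among mast cell, eosinophil and type 2 genes the median was 0.26 over 11 (0.15 without SD air replicate 2), with Ccl11, which attracts eosinophils, at 0.44, or 0.28 without SD SO2 replicate 4. Of the 8 neutrophil and 16 macrophage genes tested, none was at an unadjusted p under 0.05, and the medians were -0.08 and -0.03. The neutrophil median changed sign with the array left out, from -0.31 without SD air replicate 3 to 0.22 without SD SO2 replicate 2. B and plasma cell genes had 1 member tested.

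The lists closest to the known actions of SO2 had few members at a low p. Of 29 tested antioxidant (Nrf2) genes, none was at an unadjusted p under 0.05 (3 higher without SD SO2 replicate 2), and the median was 0.04. Hmox1, which breaks down haem, spread widely within both groups. Hmox1 had signals of 1601, 2048, 651.2 and 539.5 in SO2, against 968.3, 1219.6, 591.3 and 596.5 in air. The difference was 0.36 (95% interval -0.34 to 1.07), or 0.04 without SD SO2 replicate 2, its highest array, and was below 0 against SD air replicates 1 and 2 alone. Nqo1, a quinone reductase, was at 0.14 (95% interval -0.16 to 0.44), or 0.048 without SD SO2 replicate 1, and Gclc, the catalytic subunit for glutathione synthesis, at 0.18 (95% interval -0.14 to 0.51). Suox, sulfite oxidase, did not separate the groups. Suox had signals of 316.5, 378.8, 327.7 and 185.6 in SO2, against 299.9, 366.8, 270.8 and 393.4 in air. The difference was -0.16 (95% interval -0.53 to 0.20), or 0.044 without SD SO2 replicate 4. Of 16 tested sulfur metabolism genes, Got1 was higher (0.48) and Mpst, which moves sulfur from mercaptopyruvate, lower (-0.37, or -0.23 without SD air replicate 3) at an unadjusted p under 0.05.

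Of 16 tested inflammatory cytokine and chemokine genes, 1 was lower at an unadjusted p under 0.05 and 0 higher. It was Cxcl1, a chemokine that attracts neutrophils. Cxcl1 had signals of 311.2, 419.9, 508.9 and 459.6 in SO2, against 911.5, 506.2, 921.3 and 817.7 in air. The difference was -0.85 (SE 0.271, adjusted p = 0.44), and -1.05 without SD air replicate 2, when the groups did not overlap. Il1b, interleukin-1 beta, had means of 387.8 ± 54.7 in SO2 and 461.6 ± 75.3 in air (-0.24, 95% interval -0.62 to 0.15). Tnf was too dim to be tested. Tnf had signals of 16.1, 78.8, 75.9 and 54.5 in SO2, against 128, 100.8, 110.3 and 149.6 in air. All SO2 arrays of Tnf lay below all air arrays; with no filter on dim probe sets it was at -1.04 (adjusted p = 0.57). Il6 was near background, with signals of 7.6 to 46.5 in SO2 and 3.4 to 60.7 in air. The acute phase list had 3 of 16 higher at an unadjusted p under 0.05 (0 without SD SO2 replicate 2): Stat3, the factor downstream of interleukin-6 (0.40, without overlap), Lbp, which binds lipopolysaccharide (0.36), and Serpina3n, a protease inhibitor (1.03).

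Airway epithelial lists were mixed. Clca1, a secreted regulator of mucus known from goblet cells, had the widest range of the mucous list. Clca1 had signals of 1190.1, 1897, 382.3 and 491.5 in SO2, against 215.2, 125, 492.4 and 331.2 in air. The difference was 1.59 (SE 0.514, adjusted p = 0.461); SD SO2 replicates 1 and 2 were above all air arrays and SD SO2 replicates 3 and 4 lay within their range. Muc5ac, the gel-forming mucin of goblet cells, was too dim to be tested. Muc5ac had signals of 124, 95.3, 98.5 and 182 in SO2, against 82.4, 30.8, 74.8 and 86.7 in air. All SO2 arrays of Muc5ac were above all air arrays; with no filter it was at 0.76 (adjusted p = 0.684). Muc5b is not analysed here. Ciliated cell genes had the highest list median, 0.36, over 6 tested of 27 listed. At an unadjusted p under 0.05, 2 were higher: Tekt1, a protein of ciliary microtubules, at 0.56 and the tubulin Tubb4b at 0.24. The number was 1 to 3 as single arrays were left out. Scgb1a1 was at 0.08 (95% interval -0.14 to 0.30), or 0.046 without SD air replicate 2, and Cyp2a3, a cytochrome P450 of the airway, at 0.52. Alveolar type I and type II genes had medians of -0.06 and -0.02, with 0 of 13 and 1 of 18 at an unadjusted p under 0.05. The type II gene was Lpcat1, which remodels surfactant lipid (-0.63, or -0.32 without SD air replicate 3, where it measured 9985).

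**Figure D4:**
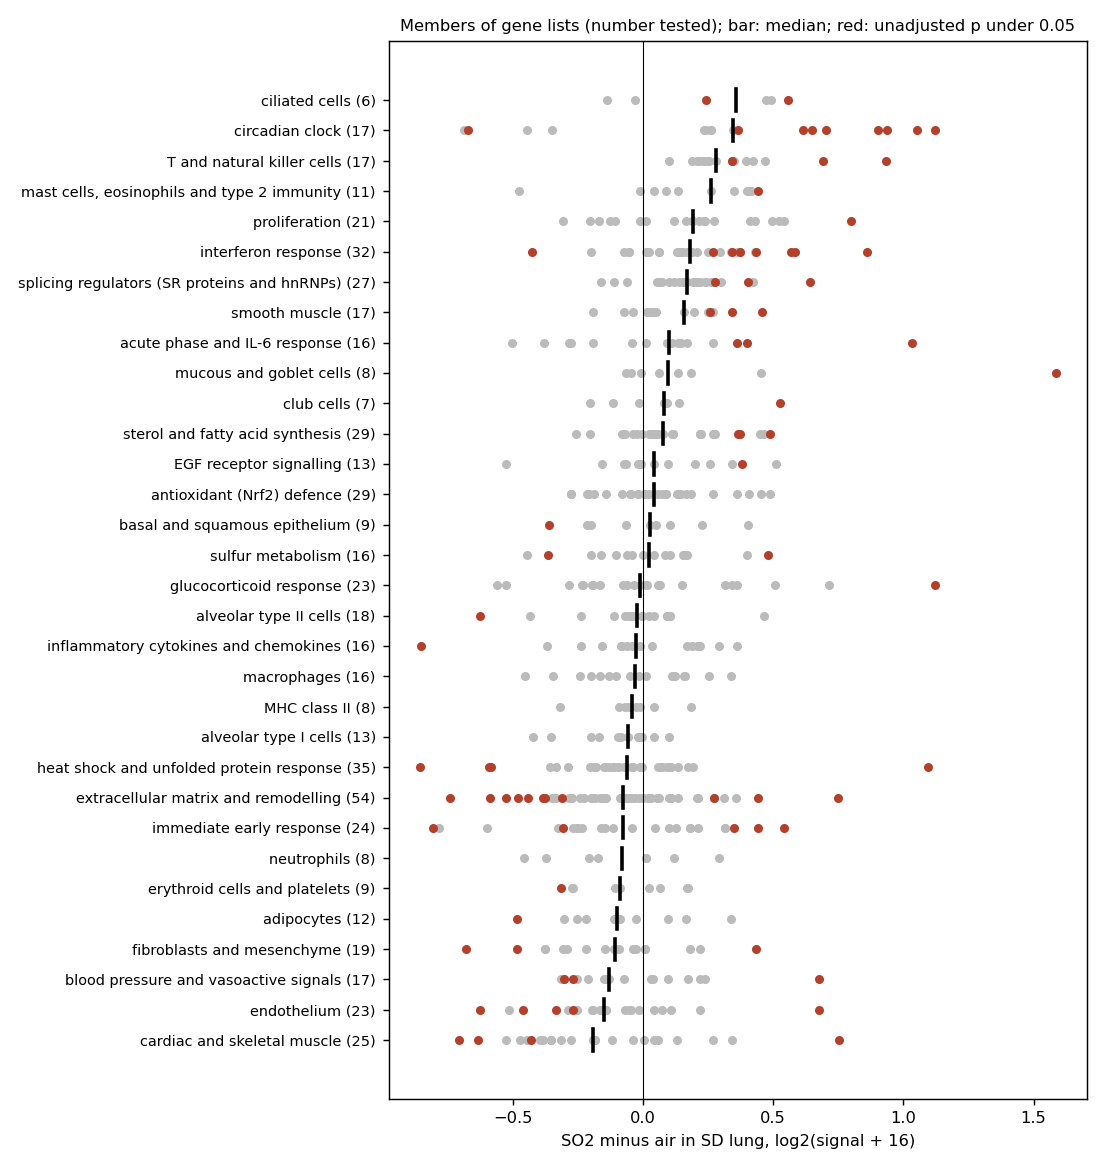
SO2 minus air in SD lung on the log2(signal + 16) scale for the members of each list with at least 5 tested genes, the number tested in brackets; points are genes, red where the unadjusted p was under 0.05, and black bars are medians. List medians run from -0.19 for cardiac and skeletal muscle to 0.36 for ciliated cells, and most members are grey in every list but the clock, where 9 of 17 are red.

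The other lists had medians of 0.19 for proliferation, 0.08 for sterol and fatty acid synthesis and for club cells, 0.10 for mucous and goblet cells and for the acute phase, 0.04 for EGF receptor signalling, 0.03 for basal and squamous epithelium, -0.01 for the glucocorticoid response, -0.04 for MHC class II, -0.08 for immediate early genes, -0.09 for erythroid cells and platelets, and -0.10 for adipocytes. Without SD air replicate 2 the glucocorticoid median was 0.10, the immediate early median 0.017 and the basal and squamous median -0.040, each of the other sign. Named by the same rule, Cks2 of the cell cycle was at 0.80, the sterol genes Idi1, Tmem97 and Insig2 at 0.49, 0.37 and 0.36, the phosphatase Dusp6 at 0.38 (or 0.24 without SD air replicate 4), the immediate early genes Nr4a1, Klf6, Ier5 and Ccn1 at 0.54, 0.35, -0.31 and -0.81, the lipase Lipe at -0.48, Perp of epithelial junctions at -0.36 and the globin Hbb at -0.32 (or -0.20 without SD air replicate 1). Fkbp5, a glucocorticoid target, was at -0.20 (95% interval -0.78 to 0.39), or -0.013 without SD air replicate 2.

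The response of SD rats was set against that of SH rats, which comes from other arrays and had 537 probe sets at an unadjusted p under 0.05 (4.84%; 2.51% of genes higher and 2.42% lower) and 0 called (0%). The test of the difference (SD minus SH) called 0 of 11106 probe sets (0%), with 516 at an unadjusted p under 0.05 (4.65%); the smallest adjusted p was 0.447 and those of the 30 genes were 0.959 to 0.998. Of the 15 genes higher in SD rats, 12 were above 0 in SH rats, with a median of 0.20, where 57.4% of all genes above 0 in SD rats were. Of the 15 lower genes, 11 were below 0 in SH rats, with a median of -0.09, where 51.6% of all genes below 0 in SD rats were. Srsf5 was at 0.64 in SD and 0.62 in SH rats, Slfn4 at 0.81 and 0.59, and Klf5 at -0.70 and -0.39; these were the 3 of the 30 that also had an unadjusted p under 0.05 in SH rats. Htra1 was at -0.74 and -0.09, Gtf2i at -0.51 and 0.07, and Irgm2 at 0.58 and -0.03. The heat shock and unfolded protein list had a median of -0.06 in SD and -0.14 in SH rats. At an unadjusted p under 0.05, 3 were lower and 1 higher in SD rats, and 9 lower and 2 higher in SH rats. Hspa1a was at -0.86 in SD and -1.35 in SH rats, Dnajb1 at -0.59 and -0.60, Hspb1 at -0.58 and -0.51, and Hyou1 at 1.10 and -0.03. The clock list had a median of 0.35 in SD and -0.02 in SH rats, with 13 and 8 of 17 genes above 0. Several leading clock genes had the same direction in SH rats: Dbp was at 0.44, Cry2 at 0.39, Per2 at 0.38 and Bmal1 at -0.13. Per1 was on the other side of 0 there, at -0.59. The heart and skeletal muscle list had medians of -0.19 in SD and 0.11 in SH rats. The differences of list medians between strains were not tested.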

How the data were processed

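Lung RNA was measured on 16 arrays. The authors deposited 1 linear intensity per probe set and array; the submitters' processing notes name GCOS, with version and algorithm not given in the sources used here. Means without the highest and lowest 2% lay between 500.099 and 500.111, so the scaling was kept. Detection calls were not used. The number of arrays limits the precision, and p-values measure the spread between the labelled replicates.

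Of 15923 probe sets, 57 controls were left out. Of the other 15866, 12783 had 1 symbol in the platform annotation, 312 several and 2771 none here; 12748 matched a RefSeq table (GRCr8, used for names and promoters) by Entrez identifier. The 30% with the lowest mean of log2(intensity + 16) over all 16 arrays were left out, leaving 11106 probe sets and 8060 genes. limma 3.58.1 in R 4.3.3 (lmFit, eBayes with a trend) was fitted with 1 mean per group, no covariate and 12 residual degrees of freedom, after a check on simulated data. Figures used matplotlib 3.10.9.

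Replicates of the SD groups carry the numbers of the labels; those of the SH groups do too, except 1 array with none, numbered in accession order. The alternatives covered the offset, scaling, filter, spread estimate, covariates, control arrays, single arrays left out and a replicate block. Named are the 15 genes of smallest p in each direction (the probe set of smallest p), up to 4 members of each list at an unadjusted p under 0.05 (the probe set of highest mean), all tested clock genes and 12 fixed genes; other probe sets of these genes, and signals of dim ones, were added after values were seen. Members and lists were chosen with earlier results of these data known.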

Additional observations from a re-analysis of the deposited data

Results flagged for a closer look

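Each group's highest and lowest array was compared with its other 3 for the 30 genes and for 5 measures of array quality, 70 groups in all, of which chance flags about 1 in 20. In 3 of them, about what that rate gives, 1 array stood far from the others. SD air replicate 2 had a strain position of 0.845, while the rest of its group lay between -0.0803 and -0.00805. The probe sets of that measure were chosen, and its scale set, without SD air replicate 2. The chance rate therefore does not apply to that flag. SD SO2 replicate 2 had an actin 3' to 5' ratio of 2.94, against 1.47 to 1.63 on the other SD SO2 arrays. Tmem140 measured 868.9 on SD air replicate 3, where the others of its group lay between 1082 and 1124. Without SD air replicate 3 the difference of Tmem140 was -0.57, and it was -0.49 with all arrays.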

How the results depend on the processing

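Under 24 alternatives limma called 0 probe sets in 19. With air replicates 1 and 2 as the only controls it called 1 (Hyou1, 1.57), and with air replicates 3 and 4 as the only controls it called 3 (Soat1 at 1.84, Mapkapk3 at a similar size and an unnamed probe set, named after their values were seen). Leaving out 1 SD array gave 0 to 3 calls: 3 without SD air replicate 4 (Hyou1, Htra1, Cdh11), 1 without SD air replicate 3 (Mx2, -2.35) and 1 without SD SO2 replicate 1 (Bmp1). The difference between the strains' responses called 0 in all 23 fits that could give it. Counts at an unadjusted p under 0.05 ran from 635 to 1264 among the fits on the same 11106 probe sets. Of 104 genes followed, 98 kept their direction in every alternative that tested them. They include all 30 of smallest p, which were chosen for their differences on these same arrays. For genes whose groups do not overlap, leaving out arrays cannot reverse the direction, so these counts are no test of stability. For list medians, of 758 values under the alternatives, 51 had the opposite sign and 49 moved by more than the spread between air arrays. The 6 values that reversed were Bhlhe41 (-0.040) and Hmox1 (-0.065) with air replicates 1 and 2 as controls, Nr1d1 (-0.049) and Fkbp5 (0.33) with air replicates 3 and 4, and Suox (0.044) and Scgb1a1 (-0.056) without SD SO2 replicate 4, with ranges over single arrays left out of -0.28 to 0.044 and -0.056 to 0.14; the cause was not tested. Centring arrays on their medians left 37.0% of probe sets at an unadjusted p under 0.05 higher in SO2, against 53.6% as deposited, and moved the median of all probe sets to -0.020, against 0.017. The labels number the SD arrays 1 to 4 in both exposures. With this number as a replicate block, an alternative added after seeing the data, 0 probe sets were called (smallest adjusted p = 0.0708), and 1097 were at an unadjusted p under 0.05. Deviations of same-numbered arrays from their group means correlated at 0.043, 0.15, -0.00083 and 0.15 over probe sets, so the numbers were not taken as pairs, and 2 of 4 SO2 arrays and 1 of 4 air arrays correlated best with their own number. Dim probe sets have understated differences because of the offset of 16.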
